A study of Mus musculus with 8 samples.

Results

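The 10 genes described here encode the enzymes and direct partners that write, copy and remove DNA methylation in the mouse. They were taken by symbol from a table of 55292 features: Dnmt1, Dnmt3a, Dnmt3b, Dnmt3l, Uhrf1, Uhrf2, Tet1, Tet2, Tet3 and Tdg. All 10 were present and all 10 passed the filter on low counts, which left 17342 genes for testing. RNA was sequenced from E14 embryonic stem cells of strain 129/Ola, a line derived from mouse embryos, kept on gelatin in medium with fetal bovine serum and LIF, a cytokine that holds such cells undifferentiated. The groups, of 2 libraries each, were lncSmad7-/- E14 cells labelled Smad7 transfected, called Smad7-labelled KO below, untreated lncSmad7-/- E14 cells (KO), and untreated wild type E14 cells (WT). The descriptions of the Smad7-labelled libraries name 24 h, and no mock-transfected knockout is among the labels, so the transfection itself cannot be told apart from Smad7. Another group, the knockout transfected with lncSmad7, was not analysed here. lncSmad7 is a long noncoding RNA, and Smad7 is an inhibitor of TGF-beta superfamily signalling. The sources used here give neither the number of knockout clones nor the deleted segment.

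Methylation of cytosine in CG dinucleotides is set by Dnmt3a and Dnmt3b, which act on unmethylated DNA, with Dnmt3l as a partner that lacks catalytic activity of its own. After replication Dnmt1 copies the pattern onto the new strand, brought there by Uhrf1, which binds CG sites methylated on a single strand. Uhrf2 is a close relative of Uhrf1. Tet1, Tet2 and Tet3 oxidise methylcytosine, and Tdg is a glycosylase that cuts out the most oxidised products so that base excision repair can restore cytosine. Embryonic stem cells kept in serum have methylated genomes and express both the de novo enzymes and Tet1 and Tet2.

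Promoter windows are shown for the de novo enzymes and Dnmt3l because these 3 genes fell in all 3 comparisons made here. The windows come from RefSeq (GRCm38.p6) and run from 250 bases before to 50 bases after an annotated start, 300 bases in all. Of the 10 genes, 10 matched, with 17 windows between them. The sequences are given 5′ to 3′ on the plus strand, which is the strand of all 3 genes, with each CG in capitals. The upstream Dnmt3a window lies at chr12:3806910-3807209, the internal Dnmt3a window at chr12:3891494-3891793, the Dnmt3b window at chr2:153649199-153649498, and the Dnmt3l window, the most downstream of its 3, at chr10:78055085-78055384.
Dnmt3a upstream: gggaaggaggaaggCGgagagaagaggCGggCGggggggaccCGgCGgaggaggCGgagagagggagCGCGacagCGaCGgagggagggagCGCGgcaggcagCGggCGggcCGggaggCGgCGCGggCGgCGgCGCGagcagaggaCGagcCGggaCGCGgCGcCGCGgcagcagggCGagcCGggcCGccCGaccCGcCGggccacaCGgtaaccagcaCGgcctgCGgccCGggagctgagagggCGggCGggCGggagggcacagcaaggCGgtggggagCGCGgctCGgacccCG
Dnmt3a internal: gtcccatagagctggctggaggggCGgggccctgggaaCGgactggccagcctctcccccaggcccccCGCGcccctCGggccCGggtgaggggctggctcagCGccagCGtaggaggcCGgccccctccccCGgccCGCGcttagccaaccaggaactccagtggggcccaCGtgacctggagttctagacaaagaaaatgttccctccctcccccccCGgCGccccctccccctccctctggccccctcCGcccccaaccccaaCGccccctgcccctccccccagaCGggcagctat
Dnmt3b: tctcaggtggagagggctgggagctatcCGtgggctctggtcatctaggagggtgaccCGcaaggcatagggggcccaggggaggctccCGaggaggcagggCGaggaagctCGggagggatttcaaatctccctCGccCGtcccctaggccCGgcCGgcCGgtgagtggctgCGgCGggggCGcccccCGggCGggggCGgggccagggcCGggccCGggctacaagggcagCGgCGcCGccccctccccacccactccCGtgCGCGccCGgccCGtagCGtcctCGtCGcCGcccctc
Dnmt3l: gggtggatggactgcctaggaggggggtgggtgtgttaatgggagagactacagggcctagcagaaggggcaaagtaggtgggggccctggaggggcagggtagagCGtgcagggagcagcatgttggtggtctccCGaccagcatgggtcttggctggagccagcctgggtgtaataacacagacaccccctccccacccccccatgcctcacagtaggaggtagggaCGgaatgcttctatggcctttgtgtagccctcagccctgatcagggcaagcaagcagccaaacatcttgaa
These starts differ in CG content. The upstream Dnmt3a window holds 47 CG, more than 98.6% of the 32851 windows of this length in the table, and the internal one holds 18, more than 70.3%. The Dnmt3b window holds 30 CG, more than 88.3% of windows, whereas the Dnmt3l window holds 3, more than 23.3%, against a median of 7 over all windows. The Dnmt3l windows not shown hold 6 and 4 CG, more than 43.6% and 31.4%, so the window shown is the lowest of that gene. The internal Dnmt3a start is the one that embryonic stem cells are known to use for the shorter Dnmt3a2 isoform, and the counts per gene do not tell the starts apart. The window of Tet2 holds 57 CG, more than 99.8% of windows. The letters CACGTG, which read the same on both strands, occur once in the internal Dnmt3a window and in 7.15% of all windows, and another Dnmt3l window, not shown, holds them once. The other 3 windows shown lack them.

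Total counts per library lay between 13392941 and 20209760, and the lowest count of any of the 10 genes in a library was 186. The deleted gene was still counted in the knockout. lncSmad7 had 10.8 and 11.2 CPM in Smad7-labelled KO, 7.14 and 5.52 CPM in KO, and 14.0 and 12.4 CPM in WT, where CPM is the count relative to the library total after scaling between libraries. It was 2.07-fold lower in KO than in WT (edgeR's quasi-likelihood test, adjusted p = 2.99e-14). Smad7 was 1.33-fold higher in Smad7-labelled KO than in KO (adjusted p = 3.25e-14), with 93.8 and 99.4 CPM in Smad7-labelled KO, 75.5 and 69.6 CPM in KO, and 97.6 and 97.7 CPM in WT. The Smad7-labelled libraries were thus near the WT level of Smad7 and not above it. All 10 embryonic stem cell markers were detected in every group, and their summed level was 4701 to 4709 CPM in Smad7-labelled KO, 7087 to 7184 CPM in KO and 5488 to 5552 CPM in WT. In KO against WT 8 were called higher and 2, Utf1 and Lin28a, lower (34.5% and 33.3% of all genes). In Smad7-labelled KO against KO 0 were higher and 9 lower (37.8% and 36.8%). Against WT, Smad7-labelled KO had 2 higher and 8 lower (43.1% and 38.8%), or 5 and 3 with library size scaling. Mitochondrial transcripts took 2.33% to 2.48% of counts in Smad7-labelled KO, 1.37% to 1.40% in KO and 1.53% to 1.58% in WT. Of 631 X-linked genes tested, 428 were higher and 67 lower in KO than in WT, with a median log2 fold of 0.87, against 0.0046 on the autosomes. In Smad7-labelled KO against WT 479 were higher and 87 lower, with a median of 1.075, against 0.043 on the autosomes. Between Smad7-labelled KO and KO 266 were higher and 215 lower, with a median of 0.10, against 0.033. Of 6 Y-linked genes tested, 4 were lower and 0 higher in KO than in WT, with a median of −3.77, and 4 were lower and 1 higher in Smad7-labelled KO than in WT, with a median of −2.74. Of the same 6, 4 were higher and 0 lower in Smad7-labelled KO than in KO, with a median of 0.86. The part of these sex-chromosome differences in the enzyme levels was not tested. None of the 10 enzymes is on a sex chromosome. In bulk RNA, fewer cells of a type and less RNA per cell cannot be told apart.

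In KO against WT cells, the de novo methylation genes fell, Tet1 and Tet2 fell and Tet3 rose. Dnmt1, Uhrf1 and Uhrf2 rose, but with offsets for GC content and length Dnmt1 fell and Uhrf2 was not called. Of the 10 genes, 9 passed an adjusted p of 0.05, 4 higher and 5 lower, where 67.7% of all genes tested passed, 34.5% higher and 33.3% lower. The count of genes called is therefore to be read against a background in which most genes passed. The median log2 fold of the 10 was −0.28, against 0.02 over all genes tested, and the median size of the log2 fold was 0.49 for the 10, against 0.51 over all genes. Between Smad7-labelled KO and KO, 9 of 10 passed, 2 higher and 7 lower, where 74.6% of all genes passed, 37.8% higher and 36.8% lower. The median log2 fold was −0.40 for the 10 genes and 0.04 over all genes. These comparisons share the KO libraries, so an error in the KO values moves both. Replicates are described as biological with no more on separate cultures, so the p-values rest on differences between libraries that may be technical repeats.

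**Figure D1:**
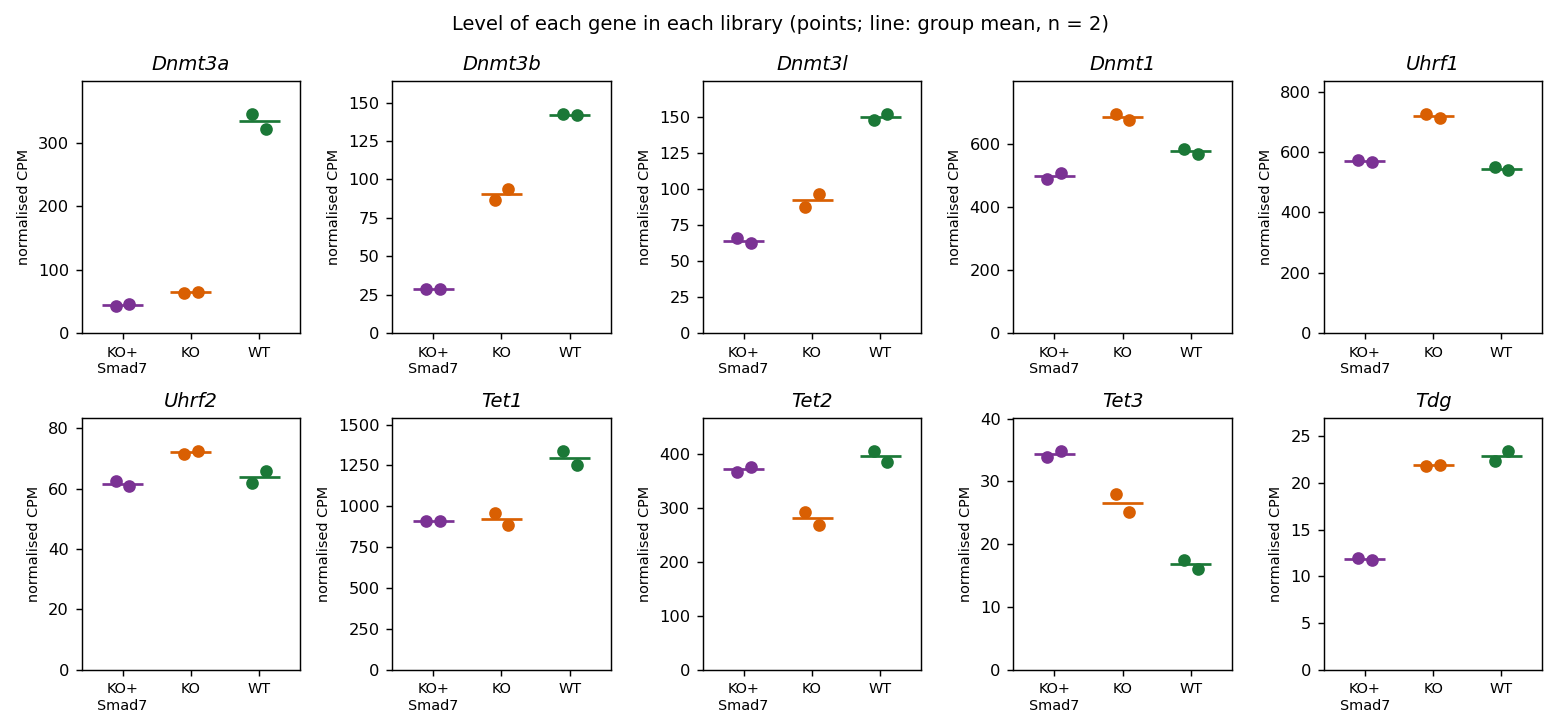
Normalised CPM of each gene (vertical axis from 0, a scale per gene) in each library, with a point per library and a line at the group mean (n = 2), for Smad7-labelled KO (KO+Smad7), KO and WT. Dnmt3a stands at 322 to 345 CPM in WT and below 66 CPM in the other 4 libraries, whereas Tet3 is highest in Smad7-labelled KO and lowest in WT.

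The plot of levels by library shows that the replicates lay close together beside the gaps between groups for most genes. The common biological coefficient of variation was 2.47%, so differences of a few percent of a level could pass the test. Dnmt3a was the gene of the set with the largest change in KO. This enzyme, at 12:3806007-3914443 of GRCm38, had 43.2 and 45.8 CPM in Smad7-labelled KO, 63.2 and 65.1 CPM in KO, and 345 and 322 CPM in WT. None of the groups overlapped, and both knockout groups stood far below WT. Dnmt3a averaged 64.2 ± 1.3 CPM in KO and 334 ± 16 CPM in WT (SD, n = 2 each). It was 5.2-fold lower in KO than in WT, a log2 fold of −2.38 ± 0.04 (SE, adjusted p = 1.49e-96), and 1.29% of all genes tested had a lower log2 fold. In Smad7-labelled KO it fell further, to an average of 44.5 ± 1.8 CPM, with a log2 fold of −0.53 ± 0.05 against KO (adjusted p = 7.71e-17). With offsets for GC content and length this second log2 fold was −0.79, and with library size as the only scaling it was −0.28.

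Dnmt3b, at 2:153649450-153687730, was the gene of the set with the largest change between the knockout groups. It had 28.5 and 28.3 CPM in Smad7-labelled KO, 86.5 and 93.9 CPM in KO, and 143 and 142 CPM in WT. The 3 groups were separate, with Smad7-labelled KO lowest and WT highest. Dnmt3b was 3.17-fold lower in Smad7-labelled KO than in KO, a log2 fold of −1.67 ± 0.06 (SE, n = 2 each, edgeR's adjusted p = 6.57e-61), and 1.37% of all genes had a lower log2 fold. Against WT, KO was lower by a smaller step, with a log2 fold of −0.66 ± 0.04 (adjusted p = 5.11e-30). The larger step of Dnmt3a thus lay between KO and WT and that of Dnmt3b between Smad7-labelled KO and KO, comparisons that share the KO libraries. With offsets for GC content and length, the log2 fold of Dnmt3b in KO against WT was −0.98.

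Dnmt3l, the catalytically inactive partner at 10:78041947-78063622, had 65.8 and 62.2 CPM in Smad7-labelled KO, 87.6 and 96.6 CPM in KO, and 148 and 152 CPM in WT. It stood in the same order as Dnmt3b with smaller gaps between the knockout groups. Dnmt3l fell in KO with a log2 fold of −0.70 ± 0.04 (SE, adjusted p = 2.18e-32), and in Smad7-labelled KO against KO with a log2 fold of −0.53 ± 0.05 (adjusted p = 3.71e-19). These became −0.91 and −0.23 with offsets for GC content and length. Aire, a transcription factor gene on the other strand, shares 67 bases of exon with Dnmt3l, which is 2.24% of the Dnmt3l exons. Aire moved the other way, with 49.2 and 51.8 CPM in Smad7-labelled KO, 15.8 and 17.2 CPM in KO, and 2.83 and 3.52 CPM in WT, and the sources used here do not state whether counting used the strand. Dnmt3c, a rodent copy of Dnmt3b known from the male germ line, had 16 and 6 counts in Smad7-labelled KO, 1 and 0 in KO, and 0 and 2 in WT, and was too low to be tested.

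Primitive endoderm markers moved with the de novo genes between KO and WT. Their summed level was 14.3 and 14.8 CPM in Smad7-labelled KO, 8.97 and 8.41 CPM in KO, and 109 and 104 CPM in WT. Of these 10 markers 8 were tested, and 8 of 8 were lower in KO than in WT, where 33.3% of all genes were. Afp and Ttr, the other 2, had 0 to 2 counts in any library and 0 in both WT libraries. Among those tested, Sox17 had 7 and 4 counts in Smad7-labelled KO, 5 and 3 in KO, and 55 and 43 in WT. Foxa2 had 4 and 2, 3 and 3, and 12 and 16 counts in that order. Both passed the filter on low counts through WT alone, so they could hardly have come out higher in KO. The 8 of 8 is therefore partly set by the filter. Between the knockout groups 4 of 8 were higher in Smad7-labelled KO and none lower, where 37.8% of all genes were higher and 36.8% lower, while Dnmt3a, Dnmt3b and Dnmt3l fell. Fibroblast and feeder markers summed to 17.3 and 17.2 CPM in Smad7-labelled KO, 10.1 and 8.94 CPM in KO, and 7.55 and 8.33 CPM in WT. None of the 8 was at 0 in all libraries, and 3 were tested. Most of each sum came from Thy1 and Pdgfrb. Thy1 averaged 6.32 CPM in Smad7-labelled KO, 4.94 in KO and 3.30 in WT, and Pdgfrb 8.60, 3.70 and 2.73. Col1a2 went the other way, with 2 and 1 counts in Smad7-labelled KO, 0 and 3 in KO, and 5 and 9 in WT. Col3a1 was counted only in WT, with 2 and 2, and Dcn, Lum and Postn had 0 to 1 count in any library. The part of such cells in the enzyme levels was not tested.

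With the reported scaling, Dnmt1, Uhrf1 and Uhrf2 were higher in KO than in either other group. Dnmt1, the copying enzyme at 9:20907209-20959888 on the minus strand, had 489 and 507 CPM in Smad7-labelled KO, 695 and 678 CPM in KO, and 585 and 568 CPM in WT. The groups did not overlap, with KO highest and Smad7-labelled KO lowest. Dnmt1 rose in KO with a log2 fold of 0.25 ± 0.04 (SE, n = 2 each, edgeR's adjusted p = 1.23e-10). It fell in Smad7-labelled KO against KO with a log2 fold of −0.46 ± 0.04 (adjusted p = 1.55e-25). The rise in KO turned to a fall with offsets for GC content and length, at a log2 fold of −0.11 (adjusted p = 0.000242). The fall of Dnmt1 in Smad7-labelled KO kept its sign in all 17 alternatives tried.

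Uhrf1, at 17:56303321-56323486, had 573 and 569 CPM in Smad7-labelled KO, 727 and 715 CPM in KO, and 551 and 540 CPM in WT. KO stood above both other groups, which were close to each other. Uhrf1 rose in KO with a log2 fold of 0.40 ± 0.03 (SE, adjusted p = 1.97e-21) and fell in Smad7-labelled KO against KO with one of −0.34 ± 0.03 (adjusted p = 9.77e-17). With offsets for GC content and length the rise shrank to a log2 fold of 0.09. Uhrf2, at 19:30030513-30093722, had 62.5 and 61.0 CPM in Smad7-labelled KO, 71.6 and 72.6 CPM in KO, and 62.0 and 66.0 CPM in WT. The levels of Smad7-labelled KO and WT overlapped, with KO above both. Uhrf2 rose in KO with a log2 fold of 0.17 ± 0.05 (adjusted p = 0.00184) and fell in Smad7-labelled KO against KO with one of −0.23 ± 0.05 (adjusted p = 4.70e-05). Neither call of Uhrf2 held with offsets for GC content and length (adjusted p = 0.804 and 0.219). The rise in KO also missed the threshold without WT replicate 1 (adjusted p = 0.0816) and in DESeq2 (adjusted p = 0.201), and the fall in Smad7-labelled KO became 0.022 with library size scaling.

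Among the oxidising enzymes, Tet1 and Tet2 fell in KO and Tet3 rose. Tet1, at 10:62804570-62908996 on the minus strand, had 909.4 and 908.7 CPM in Smad7-labelled KO, 960.3 and 883.8 CPM in KO, and 1341 and 1253 CPM in WT. Both Smad7-labelled values lay between the KO values, and WT stood above all 4. The log2 fold of Tet1 was −0.49 ± 0.04 in KO against WT (SE, edgeR's adjusted p = 3.31e-26) and −0.02 ± 0.04 in Smad7-labelled KO against KO, which did not pass (adjusted p = 0.606). This second value depended on the processing, since Tet1 was called lower with offsets for GC content and length (log2 fold −0.59, adjusted p = 1.32e-55), higher with library size scaling (0.23, adjusted p = 2.52e-09), higher with a filter of 1 CPM in 4 libraries (0.08178, adjusted p = 0.0368) and lower without KO replicate 2 (−0.10, adjusted p = 0.0279).

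Tet2, which lacks the CXXC domain of Tet1 and lies at 3:133463679-133545139 on the minus strand, had 368 and 377 CPM in Smad7-labelled KO, 294 and 269 CPM in KO, and 407 and 386 CPM in WT. KO was lowest, and Smad7-labelled KO stood near WT on this scale. The log2 fold was −0.50 ± 0.04 in KO against WT (SE, adjusted p = 3.64e-25) and 0.41 ± 0.04 in Smad7-labelled KO against KO (adjusted p = 2.65e-19), so Tet2 fell in the first comparison and rose in the second. Tet3, known for its part in the zygote and lying at 6:83362373-83459084 on the minus strand, had 33.9 and 34.9 CPM in Smad7-labelled KO, 28.0 and 25.2 CPM in KO, and 17.5 and 16.0 CPM in WT. It rose at both steps, opposite to the de novo genes. Tet3 was 1.59-fold higher in KO than in WT (adjusted p = 8.17e-13), a log2 fold of 0.67 that became 0.36 with offsets for GC content and length, and its log2 fold in Smad7-labelled KO against KO was 0.37 ± 0.07 (adjusted p = 1.51e-06). With offsets for GC content and length, the second Tet3 value was 0.05 and not called (adjusted p = 0.544), and the second Tet2 value was 0.11. With those offsets Tet2 in Smad7-labelled KO was at −0.47 against WT, close to the −0.58 of KO against WT.

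Tdg, the glycosylase gene at 10:82629828-82650799, had 12 and 11.7 CPM in Smad7-labelled KO, 21.87 and 21.98 CPM in KO, and 22.4 and 23.5 CPM in WT. Smad7-labelled KO was lowest, while KO and WT lay side by side. Tdg was 1.85-fold lower in Smad7-labelled KO than in KO, a log2 fold of −0.89 ± 0.09 (SE, adjusted p = 1.52e-16). In KO against WT the log2 fold was −0.07 ± 0.08, which did not pass (adjusted p = 0.470), and it became −0.25 (adjusted p = 0.00278) with offsets for GC content and length. These values are uncertain because a copy, Tdg-ps2, shares 876 of its 1145 windows of 50 bases with Tdg transcripts, or 76.5%, and the sources used here do not state how shared reads were counted. Another copy, Tdg-ps, holds 1636 of the 5556 windows of Tdg, or 29.4%, against 15.8% for Tdg-ps2, and had 0 to 2 counts in any library. Tdg-ps2 had 11.3 and 11.5 CPM in Smad7-labelled KO, 19.2 and 19.3 CPM in KO, and 21.4 and 19.6 CPM in WT. With both summed before the fit, the log2 fold was −0.82 ± 0.07 in Smad7-labelled KO against KO (adjusted p = 2.23e-22).

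**Figure D2:**
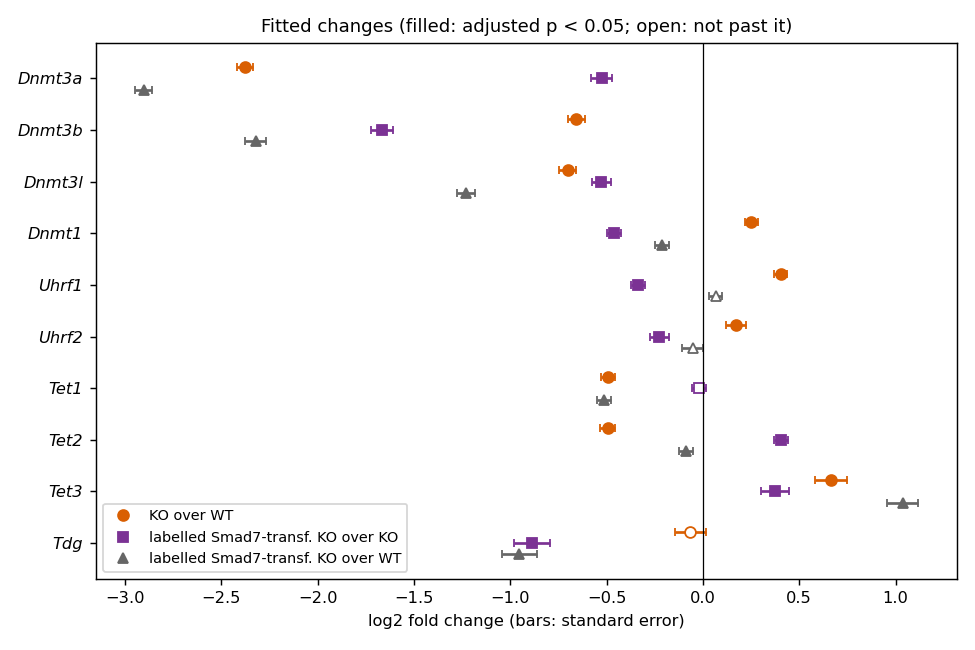
Log2 fold change of each gene (horizontal axis, bars 1 standard error) for KO over WT, Smad7-labelled KO over KO and Smad7-labelled KO over WT, filled where the adjusted p was under 0.05. Dnmt3a has the lowest value in KO over WT, at −2.38, and Dnmt3b in Smad7-labelled KO over KO, at −1.67.

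The third comparison, Smad7-labelled KO against WT, shares libraries with both others. In it 8 of 10 genes passed, 1 higher and 7 lower, where 81.9% of all genes did, 43.1% higher and 38.8% lower. The plot of fitted changes shows the de novo genes farthest from 0 on the low side. Dnmt3a was 7.49-fold lower, Dnmt3b 4.999-fold lower and Dnmt3l 2.35-fold lower in Smad7-labelled KO than in WT (adjusted p = 5.38e-104, 1.72e-82 and 1.74e-54 by edgeR's test). Tdg was 1.94-fold lower and Tet3 2.05-fold higher (adjusted p = 2.51e-18 and 1.74e-25), and the log2 fold of Tet3, 1.04, became 0.41 with offsets for GC content and length. Tet1 fell with a log2 fold of −0.51 ± 0.04 and Dnmt1 with one of −0.21 ± 0.04, and the Dnmt1 value became 0.18 with library size scaling and −0.64 with offsets for GC content and length. Uhrf1 and Uhrf2 did not pass, with log2 folds of 0.07 ± 0.04 and −0.05 ± 0.05 (SE, adjusted p = 0.0785 and 0.345). Uhrf1 was called higher with library size scaling, at 0.46, and lower with offsets for GC content and length, at −0.13. Tet2 passed with a log2 fold of only −0.09 ± 0.04 (adjusted p = 0.0223), a call lost without Smad7-labelled KO replicate 1 (adjusted p = 0.148) and without WT replicate 1 (adjusted p = 0.177). Its value turned to 0.30 with library size scaling and was −0.47 with offsets for GC content and length.

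The libraries of the groups did not overlap for 10 of 10 genes in KO against WT, where this held for 82.5% of all genes tested. They did not overlap for 9 of 10 in Smad7-labelled KO against KO, where it held for 86.3%, Tet1 being the exception, and for 9 of 10 in Smad7-labelled KO against WT, where it held for 89.9%, Uhrf2 being the exception. A called change of 1 or more on the log2 scale was reached by 1 gene, Dnmt3a, in KO against WT (22.9% of all genes), and by 1, Dnmt3b, in Smad7-labelled KO against KO (25.8%). It was reached by 4 in Smad7-labelled KO against WT (43% of all genes): Dnmt3a, Dnmt3b and Dnmt3l, which were lower, and Tet3, which was higher and fell short of this size with offsets for GC content and length. Set against a log2 fold of 0.5 in place of 0, 4 genes passed in KO against WT, where 32.1% of all genes did. These were Dnmt3a, Dnmt3b and Dnmt3l, which were lower, and Tet3, which was higher. In Smad7-labelled KO against KO, 2 genes passed this stricter test, Dnmt3b and Tdg, both lower, where 40.5% of all genes did. Smad7-labelled KO against WT had 5 that passed, with Tdg added to the 4 of the first comparison, where 57.9% of all genes did. The smaller changes of Dnmt1, Uhrf1, Uhrf2, Tet1 and Tet2 did not pass it in any of the 3 comparisons.

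Ratios of counts within a library do not depend on how libraries are scaled against each other. Dnmt3a had 1.51 and 1.61 counts per Dnmt3b count in Smad7-labelled KO, 0.731 and 0.693 in KO, and 2.42 and 2.27 in WT. Dnmt3a counts thus outnumbered Dnmt3b counts in Smad7-labelled KO and WT and fell short of them in KO. These counts are not corrected for exonic length. In CPM per kb of exon, Dnmt3b stood above Dnmt3a in each group. Dnmt3b and Dnmt3a had 5.57 and 2.67 in Smad7-labelled KO, 17.7 and 3.86 in KO, and 27.8 and 20 in WT. Dnmt3l kept close to Dnmt3b in KO and WT, with 1.01 and 1.03 counts per Dnmt3b count in KO and 1.04 and 1.07 in WT, but it had 2.31 and 2.19 in Smad7-labelled KO. Of the counts of Dnmt1, Dnmt3a and Dnmt3b together, Dnmt3a took 7.69% and 7.88% in Smad7-labelled KO, 7.48% and 7.78% in KO, and 32.2% and 31.2% in WT. Wilson 95% intervals of these shares, which cover counting error only, spanned 7.15% to 8.40% in Smad7-labelled KO, 7.09% to 8.21% in KO and 30.55% to 32.85% in WT, so the knockout groups were not told apart. Dnmt1 took 87.2% and 87.3% in Smad7-labelled KO, 82.3% and 81.0% in KO, and 54.5% and 55.1% in WT, with intervals of 86.5% to 87.9%, 80.4% to 82.9% and 53.8% to 55.8% in that order. Dnmt1 therefore took most of the methyltransferase counts in every group, with a larger share in both knockout groups than in WT. These shares are not corrected for exonic length.

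**Figure D3:**
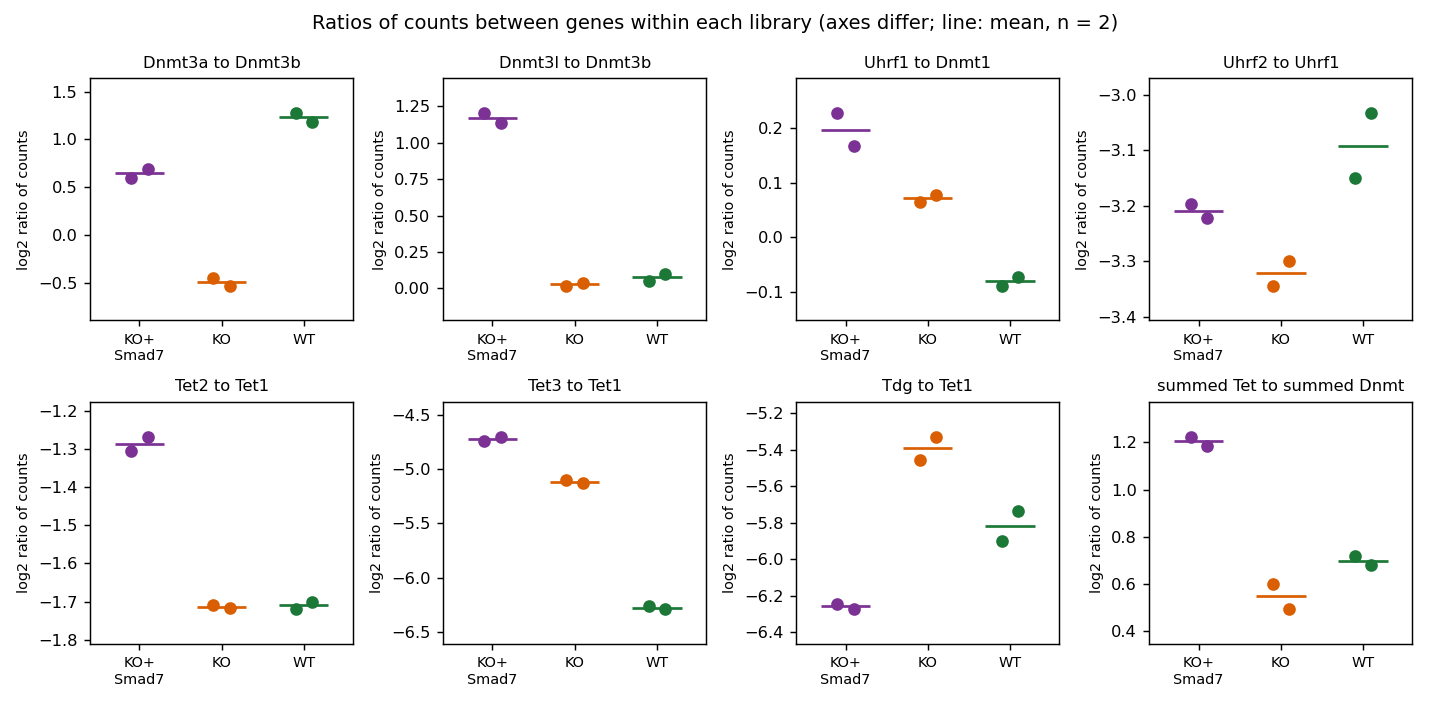
Log2 ratio of the counts of one gene to those of another within each library (vertical axis, a scale per panel), with a point per library and a line at the group mean (n = 2). The Tet2 to Tet1 panel has KO and WT together near −1.71 and Smad7-labelled KO at −1.29, and the Tet3 to Tet1 panel has 3 separate groups.

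The plot of ratios also shows the Tet genes against each other. Tet2 had 0.404 and 0.415 counts per Tet1 count in Smad7-labelled KO, 0.306 and 0.304 in KO, and 0.304 and 0.308 in WT. The KO and WT values overlapped, and Smad7-labelled KO stood above both. Ratios between genes are not free of GC content and length, and with offsets for these Tet1 was at −0.35 and Tet2 at −0.58 in KO against WT. Tet3 made up 2.59% and 2.64% of all Tet counts in Smad7-labelled KO, 2.18% and 2.14% in KO, and 0.992% and 0.970% in WT. The Wilson 95% intervals spanned 2.38% to 2.85% in Smad7-labelled KO, 1.96% to 2.37% in KO and 0.864% to 1.11% in WT. Tet3 was the smallest of the 3 Tet genes in every library. The log2 ratio of Uhrf1 to Dnmt1 averaged 0.20 ± 0.04 in Smad7-labelled KO, 0.07 ± 0.01 in KO and −0.08 ± 0.01 in WT (SD, n = 2 each). Summed Tet counts per summed Dnmt count were 2.34 and 2.27 in Smad7-labelled KO, 1.52 and 1.41 in KO, and 1.644 and 1.604 in WT. These sums are not corrected for exonic length, which was 15457 to 16870 bases for the Tet genes. It was 7377 bases for Dnmt1, 16642 for Dnmt3a and 5106 for Dnmt3b. The size of these values therefore does not show that Tet transcripts outnumbered Dnmt transcripts. With 2 libraries a group, an exact two-sided permutation test of a ratio cannot go below p = 0.333, so these ratios are given as descriptions.

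Levels of different genes were compared as CPM per kb of exon, using the exonic length of the annotation. Uhrf1 had the highest level per kb in every group, with 134 in Smad7-labelled KO, 169 in KO and 128 in WT. Dnmt1 came next in both knockout groups, with 67.5 CPM per kb in Smad7-labelled KO and 93.1 in KO, and Tet1 came next in WT, with 83.9 CPM per kb against 78.2 for Dnmt1. Tet3 was lowest in each group, at 2.06 CPM per kb in Smad7-labelled KO, 1.59 in KO and 1.01 in WT. Dnmt3a stood seventh of the 10 in WT, at 20 CPM per kb, and was among the 3 lowest in the knockout groups, at 2.67 CPM per kb in Smad7-labelled KO and 3.86 in KO. Neighbours in this order were separate in every case but a pair in each knockout group: Tet2 at 22.1 and Dnmt3l at 21.4 CPM per kb overlapped in Smad7-labelled KO, and Dnmt3b at 17.7 and Tet2 at 16.7 overlapped in KO. Exonic length counts all annotated exons of a gene, so a gene of which cells use a short isoform is understated.

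**Figure D4:**
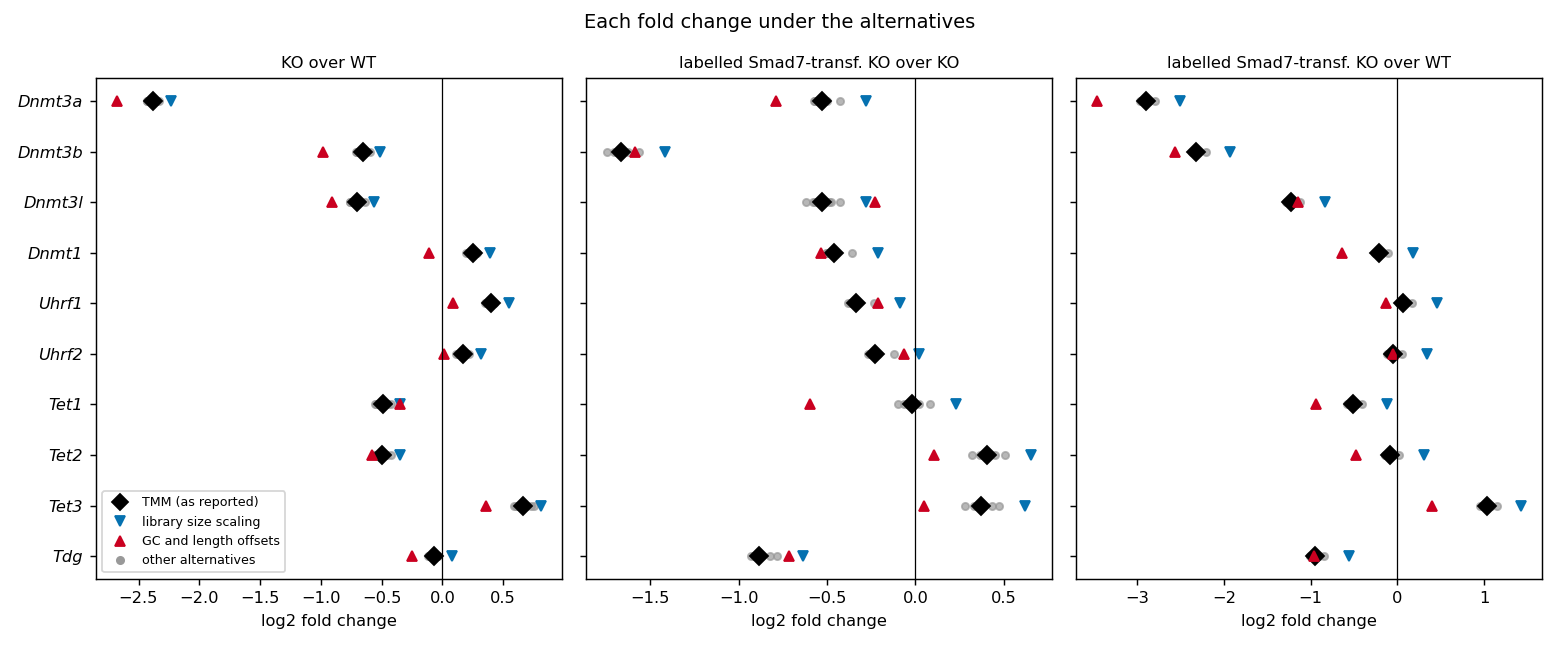
Log2 fold change of each gene (horizontal axis) for each comparison. Markers give the reported TMM scaling (black diamonds), library size scaling (blue), offsets for GC content and transcript length (red) and the other alternatives (grey). The de novo genes stay left of 0 throughout, while Dnmt1, Uhrf1, Uhrf2, Tet1, Tet2 and Tdg each have a marker on the other side of 0 in at least 1 panel.

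The plot of alternatives shows which directions rest on the scaling. Dnmt3a, Dnmt3b and Dnmt3l were lower in all 3 comparisons under each of the 17 alternatives. In KO against WT the log2 fold of Dnmt3a ranged from −2.68 to −2.23 over them, that of Dnmt3b from −0.98 to −0.51 and that of Dnmt3l from −0.91 to −0.56. In Smad7-labelled KO against KO, Dnmt3b ranged from −1.74 to −1.42 and Tdg from −0.93 to −0.64, while Dnmt3l ranged from −0.62 to −0.23, Dnmt1 from −0.53 to −0.21 and Uhrf1 from −0.38 to −0.09. The log2 fold of Tet1 in Smad7-labelled KO against WT ranged from −0.94 to −0.12. Tet3 was higher in all 3 comparisons under every alternative, although its smallest value, 0.05 in Smad7-labelled KO against KO, was not called.

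The genes whose pattern over the 6 libraries was nearest were sought among 10207 genes with a mean of at least 5 CPM. The 10 enzymes, the genes of the pathway and marker lists and clone-named genes were not among them. Nearness was the Euclidean distance between mean-centred log2 CPM. For Dnmt3a the nearest were Myc, a transcription factor gene, at a distance of 0.155, and the noncoding RNA genes Snhg4 at 0.169 and Dancr at 0.284. Myc averaged −1.20 in Smad7-labelled KO, −0.59 in KO and 1.79 in WT on that scale, beside −1.14, −0.62 and 1.76 for Dnmt3a. For Dnmt3b they were Nop16 at 0.121, Rab5if at 0.143 and Nop2 at 0.154, of which Nop16 and Nop2 encode nucleolar proteins of ribosome assembly. For Tet1 they were Nt5c2 at 0.0803, Aebp2, a partner of Polycomb repressive complexes, at 0.0830, and Enox1 at 0.0838. For Tet2 they were Cep95 at 0.0792, Ccdc57 at 0.0874 and Epm2aip1 at 0.0893. Among the 10 enzymes themselves Uhrf1 and Uhrf2 were the nearest pair, at 0.247, followed by Dnmt1 and Uhrf2 at 0.270. With 3 groups, many genes share a pattern by arrangement of the groups alone, so these distances are descriptions.

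Other genes of the pathway were taken from 6 lists. Over all genes tested, 34.5% rose and 33.3% fell in KO against WT, and 37.8% rose and 36.8% fell in Smad7-labelled KO against KO. Of 16 maintenance and targeting partners 15 were tested, and 2 rose and 11 fell in KO against WT, with a median log2 fold of −0.26 beside 0.02 over all genes. Smad7-labelled KO against KO had 3 that rose and 11 that fell, with a median of −0.56 beside 0.04 over all genes. Under offsets for GC content and length, 0 rose and 15 fell in the first comparison, and 2 rose and 13 fell in the second. Hells, a remodeller needed for methylation of repeats, had 441 and 410 CPM in Smad7-labelled KO, 266 and 252 CPM in KO, and 936 and 913 CPM in WT, and its log2 fold was −1.84 in KO against WT (edgeR's adjusted p = 1.86e-86). Its log2 fold of 0.71 in Smad7-labelled KO against KO became −0.32 with offsets for GC content and length. Trim28, the corepressor recruited by zinc finger proteins, fell at both steps, to 864 and 876 CPM in Smad7-labelled KO, against 2333 and 2342 CPM in KO, which in turn stood below 3254 and 3219 CPM in WT. Atrx, an X-linked remodeller, had 577 and 558 CPM in Smad7-labelled KO, 125 and 121 CPM in KO, and 629 and 617 CPM in WT. KO was thus far below both other groups for Atrx, with a log2 fold of −2.34 against WT and of 2.21 for Smad7-labelled KO over KO. Zfp445, a zinc finger protein of imprinted regions, fell in KO (log2 fold −0.86), and Usp7, a deubiquitinase that binds Dnmt1 and Uhrf1, and Cdca7, a partner of Hells, fell in Smad7-labelled KO against KO (−1.03 and −0.82).

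Of 14 readers of methylated or unmethylated CG, 7 rose and 4 fell in KO against WT, where 34.5% of all genes rose and 33.3% fell, with a median log2 fold of 0.14 beside 0.02 over all genes. Of the same 14, 8 rose and 2 fell in Smad7-labelled KO against KO, where 37.8% of all genes rose and 36.8% fell, with a median of 0.23 beside 0.04. Cxxc4 was among those that rose in both comparisons. It had 25 and 25 counts in Smad7-labelled KO, 5 and 3 in KO, and 1 and 0 in WT. Cxxc4 passed the filter on low counts through Smad7-labelled KO alone, so it could hardly have come out lower there. Its log2 fold in KO against WT was uncertain, at 2.58 ± 1.13 (SE). Zbtb4, a zinc finger reader, rose at both steps, with 16.9 and 16.6 CPM in Smad7-labelled KO, 6.17 and 6.42 CPM in KO, and 0.885 and 0.783 CPM in WT. Zbtb33, an X-linked zinc finger reader, rose in Smad7-labelled KO against KO (log2 fold 1.08). Mbd3, a subunit of the NuRD complex, and Cxxc1, which binds unmethylated CG, fell at both steps, with log2 folds of −0.46 and −0.64 in KO against WT and of −1.06 and −0.65 in Smad7-labelled KO against KO. Under offsets for GC content and length the readers had 6 higher and 7 lower in KO against WT, with a median of 0.0015, and 7 higher and 5 lower in Smad7-labelled KO against KO, with a median of 0.13.

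**Figure D5:**
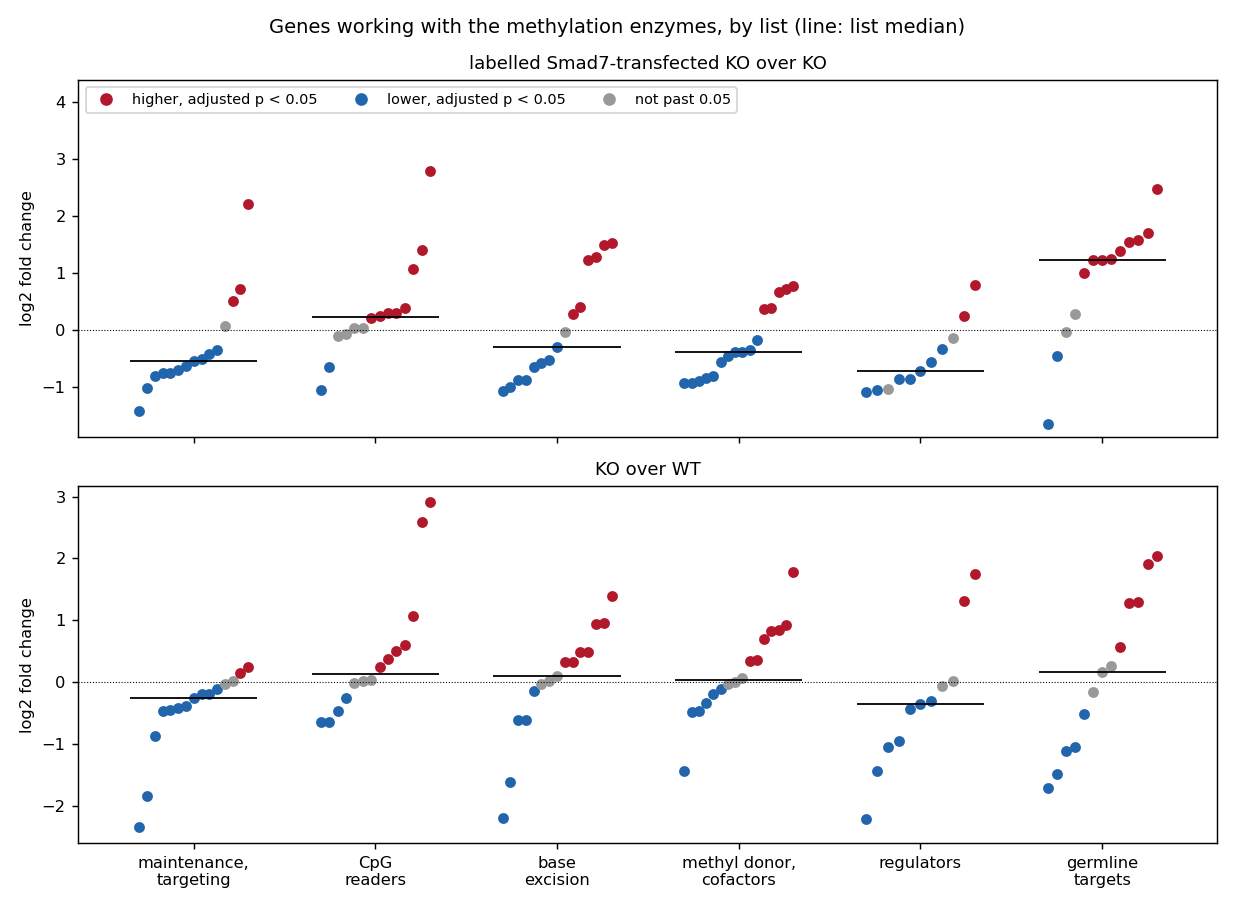
Log2 fold change of each tested gene (vertical axis) in 6 lists of genes that work with or depend on the methylation enzymes, for Smad7-labelled KO over KO and for KO over WT, coloured by call at an adjusted p of 0.05, with a line at each list's median. The germline list has its median at 1.23 in the first panel and at 0.17 in the second.

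Of 16 base excision genes 15 were tested, and 7 rose and 5 fell in KO against WT, while 6 rose and 8 fell in Smad7-labelled KO against KO. Over all genes 34.5% rose and 33.3% fell in the first comparison, and 37.8% rose and 36.8% fell in the second. Their median log2 folds were 0.11 and −0.31, beside 0.02 and 0.04 over all genes, and the first turned to −0.14 with offsets for GC content and length. Neil3, a glycosylase, rose at both steps, with 70.4 and 65.1 CPM in Smad7-labelled KO, 26.9 and 30.6 CPM in KO, and 10.97 and 10.79 CPM in WT. Neil2, another glycosylase, rose in Smad7-labelled KO against KO (log2 fold 1.49), while Parp1, a sensor of strand breaks, and the ligase gene Lig3 fell (−0.89 and −1.08). In KO against WT the stress genes Gadd45a and Gadd45b moved apart, with log2 folds of 0.95 and −1.62, and Apex1, the endonuclease that follows the glycosylases, fell (−0.60).

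Of 16 genes that supply the methyl donor or Tet cofactors, all tested, 7 rose and 6 fell in KO against WT with a median of 0.04, and 5 rose and 11 fell in Smad7-labelled KO against KO with a median of −0.40. Over all genes 34.5% rose and 33.3% fell in the first of these comparisons, with a median of 0.02, and 37.8% rose and 36.8% fell in the second, with a median of 0.04. The first median turned to −0.09 with offsets for GC content and length. Mat2a, which makes the methyl donor S-adenosylmethionine, had 197 and 190.2 CPM in Smad7-labelled KO, 345 and 354 CPM in KO, and 929 and 959 CPM in WT. It fell at both steps, with log2 folds of −1.43 in KO against WT and −0.85 in Smad7-labelled KO against KO. Idh2, a mitochondrial source of the Tet cofactor alpha-ketoglutarate, and Shmt2, of mitochondrial folate metabolism, rose in KO (log2 folds 1.77 and 0.85). Ogt, the X-linked glycosyltransferase that binds Tet proteins, rose at both steps (0.82 and 0.77). Tdh, the threonine dehydrogenase of mouse stem cells, and Mthfd1, of folate metabolism, fell in Smad7-labelled KO against KO (−0.93 and −0.90).

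Of 12 protectors and regulators of the Dnmt and Tet genes 11 were tested, and 2 rose and 7 fell in each of these comparisons, with median log2 folds of −0.36 in KO against WT and −0.72 in Smad7-labelled KO against KO. Over all genes 33.3% fell in the first, with a median of 0.02, and 36.8% fell in the second, with a median of 0.04. Dppa3 was among those that fell in KO against WT. It had 1 and 7 counts in Smad7-labelled KO, 10 and 9 in KO, and 42 and 38 in WT. Dppa3 passed the filter on low counts through WT alone, so it could hardly have come out higher in KO. Dusp9, an X-linked phosphatase of the ERK pathway, rose to 254 and 259 CPM in KO, against 76.3 and 76.8 CPM in WT. Zfp281, a zinc finger regulator of stem cells, fell to 90.8 and 85.2 CPM in KO, against 244 and 231 CPM in WT. Lin28a, an RNA-binding protein, fell at both steps, with 84.5 and 88.3 CPM in Smad7-labelled KO, 185 and 176 CPM in KO, and 372 and 371 CPM in WT. Mga, which directs a repressor of germline genes, had log2 folds of −0.95 in KO against WT and 0.80 in Smad7-labelled KO against KO, and L3mbtl2, of the same complex, and Dppa4, a regulator of early developmental genes, fell in the second comparison (−0.87 and −1.09).

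Germline genes known to be silenced by promoter methylation were split in KO and mostly higher in Smad7-labelled KO. Of 15 listed, 13 were tested. In KO against WT 5 rose and 5 fell, with a median log2 fold of 0.17, and in Smad7-labelled KO against KO 9 rose and 2 fell, with a median of 1.23 beside 0.04 over all genes. Over all genes 34.5% rose and 33.3% fell in the first comparison, with a median of 0.02, and 37.8% rose and 36.8% fell in the second. Sycp1 and Sycp3, both genes of meiosis, are examples. Sycp1 had 27.4 and 27.1 CPM in Smad7-labelled KO, 5.56 and 4.15 CPM in KO, and 17.0 and 14.9 CPM in WT, so KO was lowest. Sycp3 had 25.2 and 24.6 CPM in Smad7-labelled KO, 8.97 and 7.57 CPM in KO, and 7.31 and 6.43 CPM in WT. Hormad1, another gene of meiosis, rose at both steps, with log2 folds of 1.28 in KO against WT and 1.22 in Smad7-labelled KO against KO. Stk31, a testis kinase gene, rose in Smad7-labelled KO against KO (1.38). In KO against WT Ddx4, a germ cell helicase gene, fell (−1.48) and Tuba3a, a testis tubulin gene, rose (1.30). Tuba3a fell in Smad7-labelled KO against KO (−1.67, adjusted p = 2.65e-19), against the direction of most of the list. Asz1 was among the genes that rose in both comparisons. It had 13 and 16 counts in Smad7-labelled KO, 4 and 6 in KO, and 1 and 1 in WT. Asz1 passed the filter on low counts through Smad7-labelled KO alone, so it could hardly have come out lower there. Its second rise, a log2 fold of 1.69, became 0.76 and was not called with offsets for GC content and length. With offsets for GC content and length the list's median in Smad7-labelled KO against KO was 0.64, with 8 higher and 2 lower, and in KO against WT it was 0.35, with 7 higher and 3 lower. DNA methylation itself was not measured in these libraries.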

How the data were processed

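Libraries of poly(A)-selected RNA were made with a TruSeq kit, according to the labels' protocols. The authors deposited raw read counts per gene symbol. STAR, featureCounts 1.6.3, mm10 and GRCm38 are named in the submitters' processing notes. The sources used here do not state the annotation, strand setting or handling of shared reads. Of 8 columns, 6 matched labels, and 2 columns that matched none were not used, so 1 of 4 planned comparisons was not run.

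Counts were filtered with filterByExpr, scaled with TMM factors and tested with edgeR's quasi-likelihood test (edgeR 4.0.16, limma 3.58.1, R 4.3.3), robust, in 1 fit of 6 libraries with 3 residual degrees of freedom. P-values were adjusted by Benjamini-Hochberg over 17342 genes, with a threshold of 0.05. The fit was also run on simulated counts in which few genes changed. Most genes passed in these data, so that run does not vouch for the scaling used here. Replicates of a group differed by more than sampling noise, with chi-square values per degree of freedom of 1.57 to 1.89. CPM values use the TMM factors. Exonic lengths and positions came from the GENCODE annotation of GRCm38 and promoters from RefSeq.

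The 10 genes and all lists were chosen with earlier results of these data known. Named were the 10 genes, up to 4 genes of each pathway list with the smallest adjusted p in each of KO against WT and Smad7-labelled KO against KO, and the 3 nearest genes to each of Dnmt3a, Dnmt3b, Tet1 and Tet2. Smad7, lncSmad7, Tdg-ps2, Aire and Dnmt3c were added, as were single markers, and Asz1, Cxxc4 and Dppa3 for their low counts. A gene that the rule names is not reported here. Alternatives were RLE or library size scaling, other filters, DESeq2 1.42.0 and a fit of 4 libraries. A minimum log2 fold, a replicate block and each replicate left out were also tried. So were offsets for GC content and length, both of the longest transcript (mgcv 1.9.3, available for 97.9% of tested genes). Summing Tdg with its copy and using only autosomal genes were added after seeing the data.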

Additional observations from a re-analysis of the deposited data

How the results depend on the processing

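Of 510 fold changes of the 10 genes under 17 alternatives, 468 kept their direction and their side of the threshold. Library size scaling moved the median log2 fold of all genes to 0.17 in KO against WT, 0.29 in Smad7-labelled KO against KO and 0.48 in Smad7-labelled KO against WT. The share of higher calls became 61.8%, 65.7% and 68.3% in that order, against 50.9%, 50.7% and 52.6% with TMM factors. Under it the log2 fold turned to 0.077 for Tdg in KO against WT, to 0.022 for Uhrf2 and 0.23 for Tet1 in Smad7-labelled KO against KO, and to 0.18 for Dnmt1, 0.34 for Uhrf2 and 0.30 for Tet2 in Smad7-labelled KO against WT. Relative to those medians all of these lay below the typical gene. Offsets for GC content and length turned Dnmt1 to −0.11 in KO against WT and Uhrf1 to −0.13 in Smad7-labelled KO against WT. A filter of 1 CPM in 4 libraries turned Tet1 to 0.082 in Smad7-labelled KO against KO, and Uhrf2 to 0.054 and Tet2 to 0.019 in Smad7-labelled KO against WT. With a replicate left out, the log2 fold of Tet1 in Smad7-labelled KO against KO ranged from −0.1005 without KO replicate 2 to 0.0207 without KO replicate 1. Beyond these constructions the cause was not tested. Set against a log2 fold of 0.5, 5560 genes and 4 of the 10 were called in KO against WT, 7030 and 2 in Smad7-labelled KO against KO, and 5 of the 10 in Smad7-labelled KO against WT. With any 1 replicate left out, 10712 to 11881 genes and 8 to 9 of the 10 were called in KO against WT, 11667 to 13195 and 9 to 10 in Smad7-labelled KO against KO, and 13353 to 14569 and 7 to 8 in Smad7-labelled KO against WT.

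The replicate numbers showed no sign of pairing the libraries, as deviations of same-numbered libraries correlated at 0.0053 to 0.026. Counting noise makes up much of these deviations, so a weak pairing could be missed. With the replicate block 9 of the 10 were called in each comparison, among 11822, 12982 and 14219 genes, and Uhrf1 in Smad7-labelled KO against WT was the call gained (adjusted p = 0.0289). Counts of the 10 genes ran from 186 to 22728 in a library, and each SD rests on the difference between 2 libraries.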
